A study of Mus musculus with 15 samples.

Results

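The immediate early transcription factors described here were 10 genes, chosen by symbol, among the 25292 genes of the count table: Fos, Fosb, Jun and Junb, which encode subunits of the AP-1 factor, Egr1, Egr2 and Egr3, which encode zinc finger factors of one family, Ier2, which encodes a small nuclear regulator, and Klf2 and Klf4, which encode Krüppel-like factors. All 10 symbols were found in the table and all 10 carried enough reads to be tested. Immediate early genes are transcribed within minutes of a stimulus from factors that the cell already holds, so no new protein is needed first. Serum response factor (SRF) with its ternary complex partners, MEF2 factors and CREB, driven by ERK and calcium signals, bind their promoters, and the transcripts are short lived. Growth factors, lipid ligands of G protein-coupled receptors, stretch, dissection and other handling can all induce them, and their proteins then switch on later genes.

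RNA was sequenced from C57/Bl6J mouse embryonic pancreata in 5 groups with 3 libraries each, and each library was made from up to 3 pooled organs of one genotype or treatment. Pancreata of wild-type (wt) and of S1pr2 null embryos were collected fresh at 14.5 days post coitum (dpc). Sphingosine-1-phosphate, a signalling lipid, binds the receptor S1pr2, and the null carries the tm1Rlp allele, in which a Neo cassette disrupts exon 1, in all cells of the embryo. The other 3 groups were explants of wt dorsal buds, dissected at 14.5 dpc and kept for 2 days on filters at an air-liquid interface (ALI) in serum-free medium that was changed daily, either in standard medium, with solvent where appropriate (control), with 15 μM of the S1pr2 antagonist JTE013 (JTE), or with 15 μM JTE013 and 50 ng/ml connective tissue growth factor (JTE + CTGF). None of the 5 groups is CTGF without JTE013 or cultured null explants, and the fresh and cultured groups differ in culture time, in tissue region and in handling together, which cannot be told apart.

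Libraries held 11402804 to 13828737 reads assigned to genes, and 16245 genes were tested in one edgeR quasi-likelihood fit of all 15 libraries with Benjamini-Hochberg adjustment. Called genes are those whose adjusted p fell under 0.05. Read counts were normalised to the mean effective library size, so that 1 unit is close to 1 read. For S1pr2 itself the normalised read count was 765.6 ± 5.87 in wt (SD, n = 3) and 1358 ± 97.6 in those labelled S1pr2 null, a log2 fold change of 0.83 (SE 0.07, adjusted p = 4.5e-07). The table counts reads over the whole gene, so reads from outside the disrupted exon do not check the genotype. Since the count was higher and not lower there, the values given below for the null rest on the label. Separately from these counts, the paper reports a western blot in which null pancreata of this stage lacked S1pr2 protein. The defining markers of pancreatic epithelium, mesenchyme, endothelium and macrophages were detected in every group, and in such bulk tissue fewer cells of a type and less RNA per cell cannot be told apart.

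Promoter letters are shown for 5 of the genes, because such windows hold elements through which immediate early genes are known to be induced. RefSeq promoters (GRCm38.p6) were matched for 7 of the 10 genes, and the window searched was the 150 bases before the transcription start, read 5′ to 3′ on the strand of the gene. Capitals mark, on either strand, the CArG box bound by SRF, the core TGACG of the CREB site, the MEF2 site, and TGACATCA, the AP-1-like site of Jun.
Fos, chr12:85473740-85473889, plus strand: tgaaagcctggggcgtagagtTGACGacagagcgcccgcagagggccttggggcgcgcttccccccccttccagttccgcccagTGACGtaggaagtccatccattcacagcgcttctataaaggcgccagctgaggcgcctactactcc
Jun, chr4:95052223-95052372, minus strand: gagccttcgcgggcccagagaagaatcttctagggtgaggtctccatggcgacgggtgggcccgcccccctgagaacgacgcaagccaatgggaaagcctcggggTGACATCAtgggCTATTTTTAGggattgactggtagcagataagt
Junb, chr8:84978749-84978898, minus strand: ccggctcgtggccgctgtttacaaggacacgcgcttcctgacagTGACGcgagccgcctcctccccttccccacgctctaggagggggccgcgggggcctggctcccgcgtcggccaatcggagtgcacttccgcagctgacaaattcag
Egr2, chr10:67537719-67537868, plus strand: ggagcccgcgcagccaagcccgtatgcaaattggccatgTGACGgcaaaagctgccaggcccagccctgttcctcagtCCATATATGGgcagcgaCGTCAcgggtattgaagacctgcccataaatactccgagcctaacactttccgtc
Klf2, chr8:72318912-72319061, plus strand: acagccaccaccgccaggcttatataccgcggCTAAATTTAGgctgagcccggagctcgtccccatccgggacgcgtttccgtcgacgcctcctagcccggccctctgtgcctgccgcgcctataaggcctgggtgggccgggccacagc

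Egr2 has 5 RefSeq starts, and the one shown holds a CArG box 72 to 63 bases before the start, flanked by a TGACG on each strand. The window of the most upstream start holds neither motif, while those of the other starts each hold a CArG box. The shares below are per single window, whereas Egr2 has 5. A CArG box was present in 0.916% of the 32851 RefSeq promoters in windows of the same length, and TGACG in 13.3%. Fos holds TGACG 129 and 66 bases before its start, the second of them upstream of the TATA box, and its distal serum response element lies beyond this window. Junb holds 1 TGACG. Jun holds TGACATCA at 45 to 38 bases and a MEF2 site at 33 to 24 bases before the start, and Klf2 holds a MEF2 site at 118 to 109 bases. A MEF2 site was found in 0.332% of all promoters and TGACATCA in 2.32%. Of the genes not shown, Fosb holds 1 TGACG and Klf4 holds none of the 4 capitalised motifs. A match in these letters is a description and not a bound site.

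Between fresh wt pancreata and control explants, 9 of the 10 genes were higher in culture and 1, Klf4, was lower, where 28.5% of all tested genes were called higher and 29.3% lower. The median log2 fold change of the 10 was 2.46 against −0.023 over all tested genes. With JTE013, all 10 genes were called against control explants. Of these 8 were lower, where 26.2% of all genes were, and 2, Klf2 and Klf4, were higher, where 25.9% were, with a median of −0.95 against 0 for all genes. With JTE013 and CTGF, 6 of the 10 were below control where 33% of all genes were, and 2, again Klf2 and Klf4, were above it where 28.1% were, with a median of −0.44 against −0.032. The JTE + CTGF explants, compared with the JTE explants, had 7 of the 10 genes higher where 13.6% of all genes were and 0 lower where 16.8% were, with a median of 0.45 against −0.0022. Between wt and the libraries labelled S1pr2 null, only 1 gene, Jun, was called higher where 12.6% of all genes were, and only 1, Egr1, lower where 13.3% were, with a median of −0.05 against −0.012. The comparisons of JTE and of JTE + CTGF with control share the 3 control libraries, and that of control with wt uses them too.

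**Figure D1:**
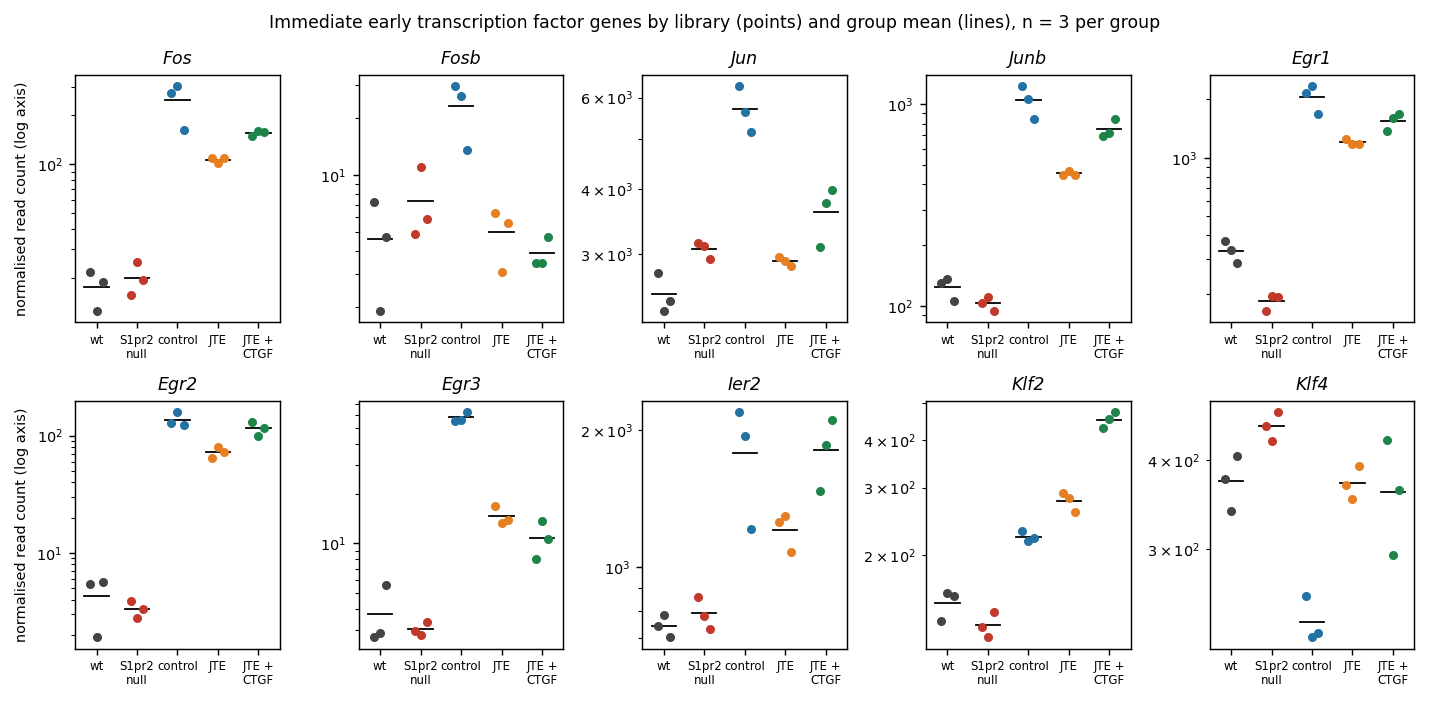
Normalised read count (log axis) of each of the 10 genes in each library (points, 3 per group) with the group mean (line), in fresh wt and S1pr2 null pancreata and in control, JTE and JTE + CTGF explants. In Fos, Junb, Egr1, Egr2, Egr3, Ier2 and Klf2 every explant library lies above every fresh library, while Klf4 is lowest in the control explants.

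**Figure D2:**
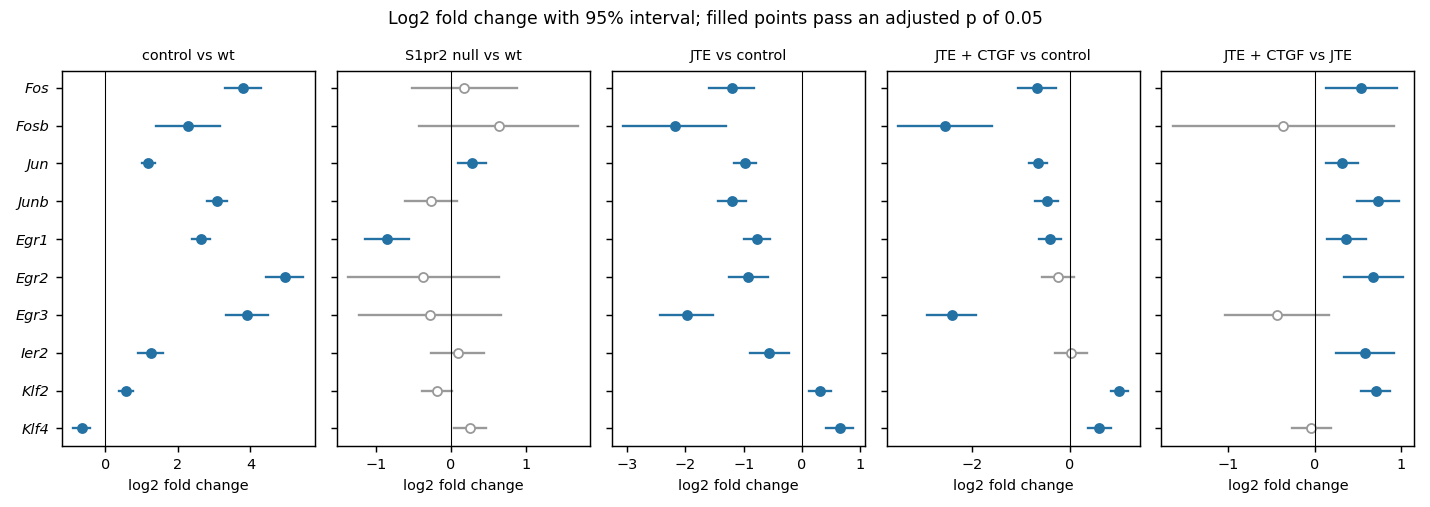
Log2 fold change (x axis, a different range in each panel) with its 95% interval for the 10 genes in 5 comparisons, filled where the adjusted p was below 0.05. The control explants lie right of 0 against wt for all genes but Klf4, and the JTE explants lie left of 0 against control for all genes but Klf2 and Klf4.

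Fos, the gene of the defining AP-1 subunit, lies at chr12:85473890-85477273 in mm10 and has 4 exons in the annotation. Its normalised read counts were 21.6, 12.45 and 18.77 in wt pancreata and 15.7, 24.93 and 19.35 in the libraries labelled S1pr2 null. They were 275, 303.6 and 161.4 in control explants, 109, 101.1 and 109.7 in JTE explants, and 148.6, 159.2 and 157.5 with JTE + CTGF. The fresh groups overlapped, every explant library was above them, and control 3 lay nearer to the JTE + CTGF libraries than to the other two control libraries. Fos rose in control explants against wt by 3.79 on the log2 scale (SE 0.239, adjusted p = 9.42e-10), which is 13.9-fold. It was lower than control with JTE by a log2 fold change of −1.21 (SE 0.186, adjusted p = 4.12e-05) and with JTE + CTGF by −0.67 (SE 0.182, adjusted p = 0.00428). The 3 JTE + CTGF libraries lay above all JTE libraries, with a log2 fold change of 0.54 (SE 0.194, adjusted p = 0.0443), but in 7 of 15 leave-one-out fits it was not called, with an adjusted p of up to 0.111 without JTE 2. The libraries whose omission ended it were wt 3, S1pr2 null 3, JTE 1, JTE 2 and each JTE + CTGF library.

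Fosb, a close relative of Fos that also pairs with Jun proteins, lies at chr7:19302721-19310045 and was the least abundant of the 10 per length of exon in all 3 explant groups. Its reads numbered 8, 2 and 5 in wt, 5, 12 and 7 in the null, 28, 26 and 13 in control, 6, 3 and 6 with JTE and 3, 3 and 4 with JTE + CTGF. The control explants stood above every other library. The summed reads of control exceeded those of wt 4.97-fold at equal library size (95% counting interval 2.81 to 9.36), and the fitted log2 fold change was 2.28 (SE 0.418, adjusted p = 0.000172). JTE held 0.216 of the control level (interval 0.115 to 0.382) and JTE + CTGF 0.167 (interval 0.0765 to 0.326), with fitted log2 fold changes of −2.18 (adjusted p = 0.000337) and −2.55 (adjusted p = 0.000138). The JTE and JTE + CTGF libraries overlapped each other, with a ratio of 0.771 whose counting interval ran from 0.31 to 1.84. These intervals cover counting error only.

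Jun, the partner that AP-1 dimers share, lies in a single exon at chr4:95049034-95052222 and was the most abundant of the 10 per length of exon in every group but JTE + CTGF, where Ier2 was level with it. The normalised counts were 2759, 2327 and 2436 in wt and 3144, 3099 and 2930 in the null. In explants they were 6320, 5617 and 5153 for control, 2957, 2900 and 2844 for JTE, and 3096, 3760 and 3979 for JTE + CTGF. All 3 control libraries were above every other library, and the JTE libraries lay within the range of the null libraries or just below it. The rise from wt to control was 1.18 on the log2 scale (SE 0.0877, adjusted p = 6.72e-09), smaller than that of Fos or Junb. JTE lowered Jun against control by a log2 fold change of −0.97 (SE 0.0873, adjusted p = 1.19e-07), that is, to 0.509 of its level. With JTE + CTGF the difference from control was −0.66 (SE 0.0868, adjusted p = 5.39e-06) and that from JTE was 0.32 (SE 0.0873, adjusted p = 0.0112), the latter with an adjusted p of 0.0767 without JTE + CTGF 3. The null exceeded wt by 0.29 (SE 0.0873, adjusted p = 0.0226) with no overlap of libraries, and this call was lost without wt 2, wt 3, S1pr2 null 1 or S1pr2 null 2, with an adjusted p of up to 0.113. The antisense gene Junos overlaps Jun, but held at most 55 reads in a library.

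Junb, an AP-1 subunit that can oppose Jun at some targets, lies in a single exon at chr8:84976909-84978748. Its normalised read counts were 129.6, 135 and 105.1 in wt and 103, 110.8 and 94.22 in the null, which overlapped. The control libraries held 1234, 1061 and 842.5, the JTE libraries 447.5, 468.7 and 447.4, and the JTE + CTGF libraries 695.2, 717.9 and 846.9. As for Fos and Jun, no JTE library reached the lowest library of either other culture condition. It rose 8.47-fold from wt to control, a log2 fold change of 3.08 (SE 0.131, adjusted p = 6.21e-12). The change with JTE was −1.20 (SE 0.113, adjusted p = 1.97e-07) against control. JTE + CTGF exceeded JTE by 0.73 (SE 0.115, adjusted p = 0.000162) and was below control by −0.47 (SE 0.109, adjusted p = 0.00123), although control 3 lay just under the highest JTE + CTGF library.

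Egr1, an early growth response factor that responds to growth factors, mechanical force and lipids, lies on chromosome 18 at 34859823 to 34864984. Its normalised read counts were 371.8, 336.2 and 288.1 in wt and 162.9, 193.9 and 192.6 in the null. In explants they were 2155, 2348 and 1676 in control, 1247, 1185 and 1183 with JTE, and 1369, 1608 and 1689 with JTE + CTGF. Every null library was below every wt library, and Egr1 was the only one of the 10 genes called lower there, at a log2 fold change of −0.86 (SE 0.139, adjusted p = 0.00028), or 0.553 of the wt level. It rose 6.2-fold from wt to control (log2 fold change 2.63, SE 0.118, adjusted p = 1.22e-11). With JTE it was below control by −0.77 (SE 0.106, adjusted p = 1.22e-05) with no overlap, and with JTE + CTGF by −0.41 (SE 0.105, adjusted p = 0.00306) with control 3 inside the range of the treated libraries. JTE + CTGF was above JTE by 0.37 (SE 0.107, adjusted p = 0.0155), which rose to an adjusted p of 0.0518 without JTE + CTGF 2 and 0.085 without JTE + CTGF 3.

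Egr2, known from Schwann cells and hindbrain as well as from stimulated cells, lies at chr10:67535475-67542188 and was close to absent before culture. Its reads numbered 6, 2 and 6 in wt and 4, 3 and 4 in the null. In culture they numbered 121, 158 and 119 in control, 61, 78 and 78 with JTE, and 115, 87 and 98 with JTE + CTGF. In the summed reads, control held 31.6 times the wt level (95% counting interval 18.6 to 58.3), the widest difference of the 10 genes, and the fitted log2 fold change was 4.94 (SE 0.247, adjusted p = 5.05e-11). JTE was below control by −0.92 (SE 0.159, adjusted p = 0.000122). JTE + CTGF was above JTE by 0.68 (SE 0.163, adjusted p = 0.00457), with all its libraries higher, and its difference from control of −0.25 (95% interval −0.57 to 0.08, adjusted p = 0.177) did not pass.

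Egr3, a target that Egr1 and calcium signals can induce, lies at chr14:70077445-70080157, and its count rests on 1416 bases of exon, where the later GENCODE M21 model has 4406. Its reads numbered 3, 3 and 6 in wt and 3, 3 and 4 in the null, against 52, 56 and 60 in control explants. They numbered 16, 13 and 15 with JTE and 7, 12 and 9 with JTE + CTGF. Unlike Fos, Junb and Egr2, Egr3 had no JTE + CTGF library above the JTE range. Control held 15.6 times the summed reads of wt (counting interval 8.68 to 30.7, fitted log2 fold change 3.92, adjusted p = 2.91e-09). The fitted log2 fold change was −1.97 (SE 0.217, adjusted p = 1.14e-06) with JTE and −2.41 (SE 0.235, adjusted p = 1.79e-07) with JTE + CTGF, both against the same control libraries. JTE + CTGF and JTE overlapped, with a difference of −0.44 (95% interval −1.04 to 0.16, adjusted p = 0.345).

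Ier2, an immediate early gene of a single exon, lies at chr8:84661331-84662852 and had uneven values in the control group. Its normalised read counts were 742.7, 786.4 and 701 in wt and 860.6, 780.3 and 732.7 in the null, which overlapped. They were 2187, 1941 and 1209 in control, 1253, 1291 and 1080 with JTE, and 1468, 1854 and 2101 with JTE + CTGF. Control 3 fell within the range of the JTE libraries, while the other two control libraries were above it. Ier2 rose from wt to control by 1.26 on the log2 scale (SE 0.164, adjusted p = 4.97e-06). It was lower with JTE than in control by −0.56 (SE 0.159, adjusted p = 0.00711), and without control 1 the adjusted p was 0.0533. JTE + CTGF was above JTE by 0.58 (SE 0.16, adjusted p = 0.0109), a call lost without JTE + CTGF 3 (adjusted p = 0.0732), and its difference from control was 0.02 (95% interval −0.31 to 0.36, adjusted p = 0.912).

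Klf2, a Krüppel-like factor best known from endothelium under flow and from resting T cells, lies at chr8:72319033-72321656. Fresh wt libraries held 134.1, 159 and 156.7 normalised reads, and null libraries 129.5, 121.9 and 142.2. The values were 231.4, 217.2 and 221.8 in control, 290.9, 281.8 and 258.6 with JTE, and 428.8, 452.3 and 472.6 with JTE + CTGF. The 4 levels from wt to JTE + CTGF stood in a fixed order with no overlap of libraries between neighbours, and Klf2 was the only one of the 10 genes called higher at each of these 3 steps. The log2 fold changes were 0.58 for control against wt (SE 0.0907, adjusted p = 3.82e-05) and 0.31 for JTE against control (SE 0.0857, adjusted p = 0.00598). JTE + CTGF was above JTE by 0.70 (SE 0.0816, adjusted p = 8.99e-06) and above control by 1.01 (SE 0.0836, adjusted p = 2.88e-08).

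Klf4, a Krüppel-like factor of epithelia and of pluripotent and growth-arrested cells, lies at chr4:55527143-55532466. Normalised read counts were 375.4, 339.1 and 404.5 in wt and 445.5, 424.8 and 466.1 in the null. They were 258, 226.2 and 229.1 in control, 369.2, 352.3 and 392.5 with JTE, and 426.5, 294.3 and 362.4 with JTE + CTGF. The control explants were the lowest group, and the JTE explants lay within the range of fresh wt pancreata. Klf4 fell from wt to control by 0.65 on the log2 scale (SE 0.11, adjusted p = 7.61e-05). It was above control with JTE by 0.64 (SE 0.11, adjusted p = 0.000114) and with JTE + CTGF by 0.60 (SE 0.112, adjusted p = 0.000181), while the treated groups overlapped (difference −0.04, adjusted p = 0.811). All 3 null libraries were above all wt libraries, with a log2 fold change of 0.26 (SE 0.102, adjusted p = 0.0742) that did not pass, and which had an adjusted p of 0.0134 when only these 6 libraries were fitted.

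Levels were compared between genes as RPKM, reads scaled to exon length and to effective library size. In wt pancreata the order was Jun at 62.6 ± 5.61, Ier2 at 38.9 ± 2.23, Klf4 at 9.74 ± 0.856, Klf2 at 6.47 ± 0.593, Egr1 at 5.9 ± 0.746, Junb at 5.34 ± 0.691 and Fos at 0.596 ± 0.159 (SD, n = 3), with Egr3 at 0.21, Egr2 at 0.101 and Fosb at 0.0977. Klf2 and Egr1, Egr1 and Junb, and Egr2 and Fosb were neighbours that did not differ beyond their spread. In control explants the order was Jun at 142 ± 14.7, Ier2 at 93.1 ± 26.6, Junb at 45.3 ± 8.49, Egr1 at 36.6 ± 6.15, Klf2 at 9.64 ± 0.314, Fos at 8.35 ± 2.55 and Klf4 at 6.21 ± 0.459, followed by Egr3 at 3.26, Egr2 at 3.21 and Fosb at 0.491. The means of Junb and Egr1 were below that of Klf2 in wt, where the libraries of both overlapped those of Klf2. In control explants every library of both lay above Klf2. In control explants Junb and Egr1, Klf2 and Fos, Fos and Klf4, and Egr3 and Egr2 were neighbours within their spread.

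The spread between libraries of one group was described for the 7 genes with a mean of at least 100 normalised reads, because handling before RNA extraction can induce these genes. After the group means were removed, the SD of log2 CPM, the count scaled to library size, over the 15 libraries was 0.306 for Fos, 0.25 for Ier2, 0.174 for Junb, 0.17 for Egr1, 0.147 for Klf4, 0.125 for Jun and 0.0947 for Klf2. Of the 11448 genes at this level, 97.9% had a smaller SD than Fos and 96.1% a smaller one than Ier2, while Klf2 lay near the middle, with 48.6% below it. The median was 0.17 for the 7 genes and 0.0961 for all genes at this level, and on a variance-stabilised scale 0.161 and 0.0898. Counting error alone gives Fos, at a mean of 109.2 reads, an SD near 0.234, but Ier2 only 0.0438 and Egr1 0.0662. All of the 7 genes but Klf2 thus varied more between libraries of a group than most genes at this level. For Klf4 80.7% of genes had a smaller SD and for Jun 70.2%. For Fos, with a mean of 17.61 normalised reads in wt, much of the SD can be counting error.

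This spread was not even over the groups. In control explants the highest library exceeded the lowest 1.88-fold for Fos, 1.81-fold for Ier2, 1.46-fold for Junb and 1.4-fold for Egr1, whereas in JTE explants these ratios were 1.09, 1.2, 1.05 and 1.05. Control 3 was the library with the lowest value of its group for 7 of the 10 genes, although it was the lowest for only 36.2% of all tested genes, and its values lay on average −0.25 from the group mean on the log2 scale. Klf2, Klf4 and Egr3 were the genes that did not have their lowest control value there. In the JTE + CTGF group, library 1 was the lowest for 8 of the 10 genes, against 35.7% of all genes, with a mean of −0.09, and library 3 was the highest for 6 genes, against 33%. The mean deviations of the 3 JTE libraries lay between −0.04 and 0.05. In control 3, against control 1 and control 2, pancreatic epithelial markers summed to 2710 CPM against 3120 and 2890, other immediate early genes to 3170 against 3490 and 3380, and Schwann markers to 250 against 268 and 256, the lowest values of the group. Endothelial markers summed to 809 against 692 and 663, mesenchymal markers to 8630 against 8180 and 8250, mesothelial markers to 74.7 against 51.2 and 69.7, erythroid markers to 25.2 against 14.8 and 10.4 and heat shock genes to 5630 against 5570 and 5500, the highest of the group, and macrophage markers lay between the others at 229 against 209 and 246. Their part in the low values of control 3 was not tested. Without control 3, JTE 3 and JTE + CTGF 1 together, a choice made after seeing the data, 10 genes were called in JTE against control, as with all libraries. Over all genes 7660 were then called there, against 8474 with all libraries.

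**Figure D3:**
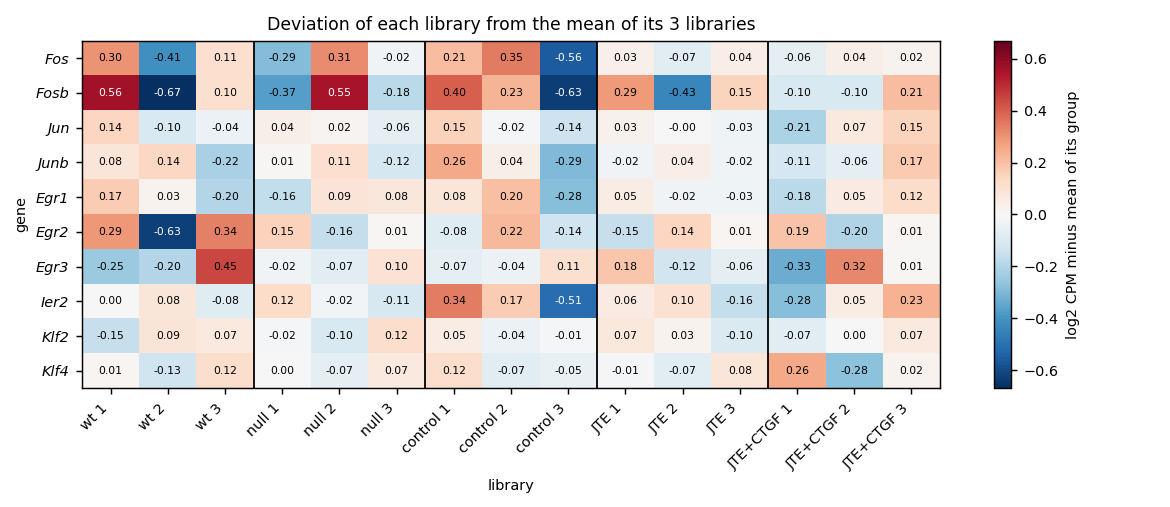
Difference of each library (columns) from the mean of its own group in log2 CPM for each of the 10 genes (rows), with the value printed in each cell and red above and blue below the mean. Control 3 is blue for Fos, Fosb, Jun, Junb, Egr1, Egr2 and Ier2, at −0.56 for Fos and −0.51 for Ier2, and the Klf2 row is pale throughout.

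Within groups, the genes moved together to different degrees. Over the 15 libraries, the correlation of a gene's deviation from its group mean with the mean deviation of the other members was 0.85 for Fos, 0.71 for Jun, 0.59 for Egr1, 0.53 for Ier2 and 0.41 for Junb, but 0.07 for Klf4 and −0.18 for Klf2. The points share library, depth and group means, so these coefficients are a description. Outside the 10, the genes whose deviations were most like the mean of the 10 were 1110032A03Rik (r = 0.928), Mzt1 (r = 0.927), Mettl25 (r = 0.901), Zfp958, Ppt1, Nt5c3, Polr2c, Golt1b, Arrdc4 and C1galt1c1 (r = 0.856 for the last). Mzt1, for example, held 543.6, 595.2 and 407.2 normalised reads in the control libraries, with the lowest in control 3. These genes were picked for the highest r among all genes with a mean of at least 100 normalised reads. Such a choice alone can give high values. The mean of the 10 also includes Fosb, Egr2 and Egr3, which held few reads in fresh tissue. Among other immediate early genes, Zfp36, whose protein destabilises AU-rich transcripts, ranked 19th (r = 0.827) and Ccn1, a secreted matrix protein and SRF target, 27th (r = 0.797), with 1158, 1122 and 714.4 normalised reads of Ccn1 in the control libraries. Of the 37 other immediate early genes at this level 21 had a positive r and 16 a negative one, down to −0.778 for Per1, a clock gene.

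A list of 45 other immediate early genes, of which 42 were tested, moved with the 10 in part. From wt to control 30 of the 42 rose (71.4%, where 28.5% of all tested genes did) and 2, Gadd45a and Nr4a2, fell (4.76%, against 29.3%), with a median log2 fold change of 0.73. The strongest by adjusted p were Ier3 (2.77), a survival gene, Fosl2 (1.45), an AP-1 subunit, Klf6 (1.21), the NF-κB inhibitor Nfkbia (1.81) and the clock-linked repressor Bhlhe40 (2.16). With JTE 19 were below control (45.2%, against 26.2% of all genes) and 8 above it (19%, against 25.9%), with a median of −0.24. Trib1, a pseudokinase, was lower by a log2 fold change of −1.42, Nfkbia by −1.13, Klf10 by −0.73 and Fosl2 by −0.73, while Cebpb, a bZIP factor of stress and inflammation, was higher by 1.37.

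With JTE + CTGF 17 of the 42 were below control (40.5%, against 33% of all genes) and 13 above it (31%, against 28.1%), with a median of −0.05. Cebpb (1.88) and Atf3 (1.32), both stress-responsive bZIP factors, were above control, whereas Trib1 (−1.33), Fosl2 (−0.91) and Klf6 (−0.61) were below it. Atf3 held 42.92 ± 5.16 normalised reads in wt, 266.8 ± 44.1 in control, 614.6 ± 48 with JTE and 668.4 ± 56.1 with JTE + CTGF (SD, n = 3), so it rose both in culture and with the antagonist, unlike Fos or Junb. Against JTE alone, JTE + CTGF had 14 genes higher (33.3%, against 13.6% of all genes), among them Gadd45g (0.70), Jund (0.42), Cebpb (0.51), Btg1 (0.28) and Ier3 (0.35), and 4 lower (9.52%, against 16.8%), with a median of 0.14. In the libraries labelled S1pr2 null 5 of the 42 were higher (11.9%) and 3 lower (7.14%), no larger shares than the 12.6% and 13.3% of all genes, with Gadd45b, a stress sensor, at −0.57 and Csrnp1, Fosl2, Zfp36l1 and Btg1 at 0.51, 0.32, 0.30 and 0.22.

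The genes that carry signals to these promoters had log2 fold changes between −0.87 and 0.66 in all 5 comparisons. Of 15 SRF, ERK and CREB pathway genes, 4 were higher and 4 lower in control than in wt (26.7% each, near the 28.5% and 29.3% of all genes, median 0.10). Nab1 and Nab2, corepressors that bind Egr proteins, rose by 0.66 and 0.66, and Mapk3, which encodes ERK1, rose by 0.40. With JTE 3 were higher (20%, against 25.9% of all genes) and 4 lower than control (26.7%, against 26.2%, median −0.05), with Mapk3 at −0.45 and Elk3, a ternary complex factor, at −0.45. With JTE + CTGF 4 were higher (26.7%, against 28.1%) and 6 lower than control (40%, against 33%, median −0.10), with Mrtfb, an SRF coactivator, at −0.87 and Elk3 at −0.29. Against JTE the same group had 4 higher (26.7%, against 13.6%) and 3 lower (20%, against 16.8%, median −0.05), with Mapk3 at 0.36, Map2k2 at 0.32 and Mrtfb at −0.62. In the null 4 were higher (26.7%, against 12.6%) and 1 lower (6.67%, against 13.3%, median 0.06), with Elk3 at 0.28, Creb1 at 0.22 and Nab1 at −0.24.

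Relatives of the 10 genes that are not classed as immediate early were also counted. Of 17 tested bZIP and Krüppel-like genes, 8 rose and 0 fell from wt to control (47.1% and 0%, against 28.5% and 29.3% of all genes, median 0.37, edgeR). With JTE 5 were higher and 1 lower than control (29.4% and 5.88%, against 25.9% and 26.2%, median 0.03), and with JTE + CTGF 4 were higher and 6 lower (23.5% and 35.3%, against 28.1% and 33%, median −0.08). Against JTE, JTE + CTGF had 3 higher and 5 lower (17.6% and 29.4%, against 13.6% and 16.8%, median −0.0061), and the null had 3 higher and 2 lower than wt (17.6% and 11.8%, against 12.6% and 13.3%, median 0.07).

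Heat shock genes, which also respond to handling, were counted too. Of 12 tested, 3 were higher and 6 lower in control than in wt (25% and 50%, against 28.5% and 29.3% of all genes, median −0.17). The 3 higher were Hspa1b at 0.73, Hspa5 at 0.29 and Dnajb1 at 0.18. Hspa8, the constitutive Hsp70 chaperone, fell from 8508 ± 363 normalised reads in wt to 1371 ± 108 in control (log2 fold change −2.63, adjusted p = 4.54e-10). It held 3541 ± 1160 in the null. The mitochondrial chaperone genes Hspd1 and Hspe1 were at −0.79 and −0.89 in control against wt. With JTE 2 were higher and 2 lower than control (16.7% each, against 25.9% and 26.2%, median 0.02), with Hspd1 at 0.47, Hspe1 at 0.42 and Dnaja1 at −0.33. With JTE + CTGF 4 were higher and 3 lower than control (33.3% and 25%, against 28.1% and 33%, median 0.04), with Hspe1 at 1.10, Hspd1 at 0.42 and Hsp90aa1 at −0.55, and against JTE 3 were higher and 2 lower (25% and 16.7%, against 13.6% and 16.8%, median 0.11), with Hspe1 at 0.68, Hspb1 at 0.52 and Hsp90aa1 at −0.40. In the null 1 was higher and 4 lower (8.33% and 33.3%, against 12.6% and 13.3%, median −0.08), with Hspa8 at −1.27, Hspb1 at −0.76 and Hspd1 at −0.19. The 1 higher was Hspa1a at 0.68, with libraries that overlapped those of wt.

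**Figure D4:**
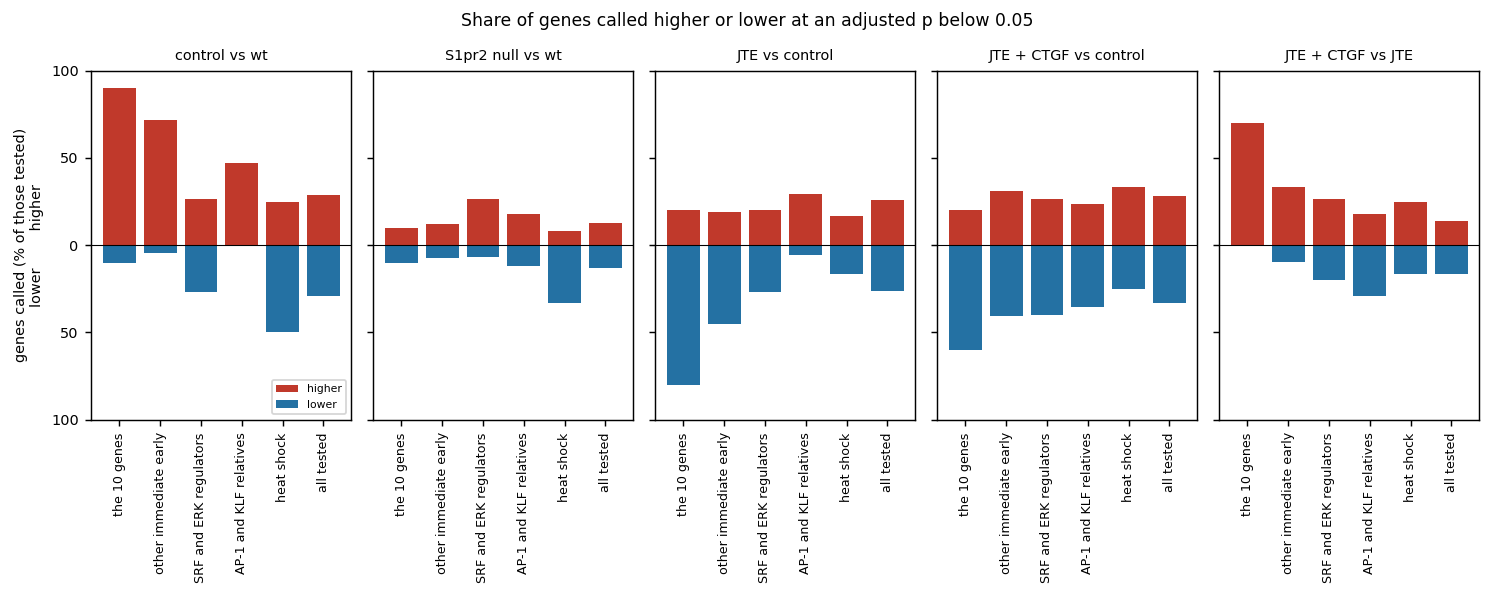
Share of tested genes called higher (red, upwards) or lower (blue, downwards) at an adjusted p below 0.05, for the 10 genes, 4 further gene lists and all 16245 tested genes, in 5 comparisons. The 10 genes reach 90% higher in control against wt and 80% lower in JTE against control, and the heat shock list is called lower more often than higher in control against wt.

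Markers of other cell types also differed between the groups in which the 10 genes differed. For the counts that follow, 26.2% of all tested genes were lower and 25.9% higher with JTE than in control. Between JTE + CTGF and JTE, 13.6% of all tested genes were higher and 16.8% lower. All 8 macrophage and leukocyte markers were lower with JTE than in control, and their summed level was 209 to 246 CPM in control, 77.8 to 91 with JTE, 64.8 to 90.3 with JTE + CTGF, 146 to 163 in wt and 176 to 202 in the null. Of 13 endothelial markers 7 were lower and 1 higher with JTE, and they summed to 663 to 809 CPM in control, 521 to 584 with JTE and 514 to 607 with JTE + CTGF, against 719 to 725 in wt. Between JTE + CTGF and JTE, 4 endothelial markers were higher and 1 lower (median 0.15). Klf2 is expressed by endothelium. The endothelial marker Cldn5, named after its values were seen, had the same order of group means as Klf2 from wt to JTE + CTGF. It held 325.3 ± 19.6 normalised reads in wt and 524.3 ± 43.6 in control (SD, n = 3). With JTE it held 595.9 ± 35.1 and with JTE + CTGF 724.4 ± 76.4. No other marker of the 13 had this order, and the means of Pecam1, Kdr and Flt1 fell at each of these steps. Pecam1, for example, had means of 1280 in wt, 1160 in control, 880 with JTE and 856 with JTE + CTGF. The 7 erythroid markers summed to 346 to 523 CPM in wt and 842 to 1170 in the null, but to 10.4 to 25.2 in control and 9.92 to 32.9 with JTE. The 8 pancreatic epithelial markers summed to 2710 to 3120 CPM in control, 1890 to 2400 with JTE and 2110 to 2310 with JTE + CTGF, with 5 lower and 1 higher with JTE. The 8 Schwann and neural crest markers, which bear on Egr2, summed to 226 to 229 CPM in wt and 250 to 268 in control, where Egr2 differed 31.6-fold, and to 193 to 217 with JTE. No marker of these lists was at 0 in all libraries of a group. The part of these cell types in the values of the 10 genes was not tested.

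The response to JTE013 in explants was set against the difference between null and wt by an interaction contrast in the same fit. Of the 10 genes 6 were called lower in it, where 21.5% of all genes were, and 2 higher, where again 21.5% were, with a median of −0.79 against 0.0043 over all genes. The contrast was −1.26 for Jun (SE 0.123, adjusted p = 7.25e-07), which was lower with JTE and higher in the null, and −0.94 for Junb (SE 0.2, adjusted p = 0.00123). Egr1, lower in both, had a contrast of 0.08 (95% interval −0.29 to 0.45, adjusted p = 0.732). The calls of Egr3, Ier2 and Klf4 in this contrast did not hold with DESeq2, with adjusted p of 0.0688, 0.0534 and 0.0783. Antagonist and genotype were compared in tissue of different culture history, and the null rests on its label. For Fos, Fosb, Egr2 and Egr3 the fresh side of this contrast also rests on few reads.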

How the data were processed

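Counts were analysed from 15 strand-specific poly(A) libraries, 3 per group, with groups taken from the sample titles. The authors aligned single-end reads to mm10 with GSNAP and deposited raw counts of uniquely aligned reads per Ensembl gene, made with featureCounts 1.4.6. The strand setting of the counting is not given in the sources used here, so a gene and its antisense partner can share reads. Counts were tested in R 4.3.3 with edgeR 4.0.16 (quasi-likelihood F-test, TMM factors, filterByExpr, a coefficient for each group, a single fit of all libraries). Alternatives are in the closing section. The deposited table also gives exon positions and a gene length, which served for levels per length. At 11402804 to 13828737 reads per library, genes under about 100 reads are limited by counting error. The members and lists were chosen with earlier results of these data known. Named genes beyond the 10 were the tested genes of each list with the lowest adjusted p and no overlap of libraries (5 per comparison for other immediate early genes, 3 for 2 other lists) and the 10 with the most similar deviations. Other genes, such as Cldn5, Pecam1, Zfp36, Hspa1b and Hspa1a, were named outside this rule. A gene that this rule names is not reported here. Symbols came from GENCODE M21. The test was tried on simulated data. Plots used Python with matplotlib.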

Additional observations from a re-analysis of the deposited data

Results flagged for a closer look

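By the edgeR interaction test, the JTE013 response differed from the difference between libraries labelled S1pr2 null and wt for 8 of the 10 genes. Of these 6 were lower, where 21.5% of all tested genes were, and 2 higher, where again 21.5% were. The contrast was JTE minus control, less null minus wt, on the log2 scale. It was −1.389 for Fos (SE 0.381), −2.818 for Fosb (SE 0.665), −1.26 for Jun (SE 0.123) and −0.9358 for Junb (SE 0.2). It was −1.688 for Egr3 (SE 0.53), −0.6486 for Ier2 (SE 0.231), 0.4983 for Klf2 (SE 0.128) and 0.3882 for Klf4 (SE 0.15). Summed reads in null and wt were 66 and 57 for Fos, 24 and 15 for Fosb, and 10 and 12 for Egr3. A fall in the null is thus poorly measured for these genes. Egr3, Ier2 and Klf4 were not called with DESeq2, with adjusted p of 0.0688, 0.0534 and 0.0783. Their edgeR calls were lost in 6, 7 and 10 of the fits without 1 library. The pairs of groups also differ in culture and in dissection, which cannot be told apart from antagonist and allele here.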

How the results depend on the processing

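Counts of called genes among the 10 kept within 1.5 times their value under the other normalisations, without the filter, and with only the libraries of each comparison, except as follows. By the criterion of the study (adjusted p of at most 0.1, a mean above 100 normalised reads, and a fold below 0.6 or above 1.6) 1 gene was counted in S1pr2 null against wt, 5 in JTE against control, 1 in JTE + CTGF against control, 2 in JTE + CTGF against JTE and 6 in control against wt, and by construction this leaves out the low and the small changes. These counts are given without the share of all genes by that criterion, so they do not show whether the 10 genes differ from other genes. DESeq2 called 5 of the 10 genes in the interaction, and the cause was not tested. Over all genes it called 6195 there, against 6977 with edgeR. Leaving out 1 library gave 1 to 3 of the 10 genes in null against wt, where calls over all genes ran from 2798 to 4709. In JTE against control it gave 9 to 10, with 7735 to 8567 over all genes. In JTE + CTGF against JTE it gave 3 to 7. The 3 came without JTE + CTGF 3, where calls over all genes fell from 4941 to 3357. In the interaction it gave 5 to 8. The 5 came without wt 1, S1pr2 null 1 or S1pr2 null 2, where calls over all genes fell from 6977 to 6601, 6340 and 6265. All 10 genes stayed called in control against wt, and 8 in JTE + CTGF against control, whichever library was left out.

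Signs that reversed belonged to differences that were not called. Ier2 in JTE + CTGF against control was −0.0162 without TMM factors, −0.0449 without control 3, JTE 3 and JTE + CTGF 1, and −0.193 to 0.197 when 1 library was left out. Under the same omission Fos in null against wt ran from −0.0121 to 0.356, Egr3 there from −0.473 to 0.12, Klf4 in JTE + CTGF against JTE from −0.18 to 0.0867, and Egr1 in the interaction from −0.0463 to 0.187, with −0.0289 without those 3 libraries. The call of Klf4 in the interaction was lost in 10 of the 15 fits without 1 library.

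The correlation of same-numbered deviations ran from −0.285 to 0.452. For control with JTE it was −0.0397, 0.289 and 0.452 for replicates 1, 2 and 3. Libraries of different numbers were not compared in this way, so these values do not decide whether the replicate numbers pair the libraries. With the replicate block 3 genes were called in null against wt, because Klf4 then passed (adjusted p = 0.0352), and 10, 8, 7, 10 and 8 in JTE against control, JTE + CTGF against control, JTE + CTGF against JTE, control against wt and the interaction. Over all genes the block gave 4060 calls in null against wt, against 4199 without it. Depth limits Fosb, Egr2 and Egr3, which had at most 12 reads in a fresh library.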
